A study of Mus musculus with 8 samples.

Results

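Integrins are cell-surface receptors for the extracellular matrix, and laminins are matrix proteins that many of them bind. The genes described here are the integrin subunits and laminin chains of the mouse, taken by gene symbol. The symbols have the form Itga, Itgb or Lama, Lamb, Lamc followed by the subunit's number or letter. Integrin-binding proteins whose symbols contain bp were left out. These genes were chosen with earlier results of these data known. They are 37 of the 24539 genes in the table, with 18 integrin alpha subunits, 8 integrin beta subunits, 5 laminin alpha chains, 3 laminin beta chains and 3 laminin gamma chains. An integrin is a pair of an alpha and a beta subunit, and the pair decides the ligand: some pairs bind the RGD sequence of fibronectin and related proteins, others bind collagens or laminins, and a further set belongs to leukocytes. A laminin is a trimer of an alpha, a beta and a gamma chain, and laminins with nidogen and type IV collagen build basement membranes. In the developing kidney, integrin alpha8 beta1 on the mesenchyme binds nephronectin from the ureteric bud and is known to be needed for the bud to grow, and laminin chains change as mesenchyme turns into epithelium.

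Nephron progenitors of E18.5 mouse kidneys were sorted by flow cytometry and their RNA was sequenced, in 4 groups of 2 libraries. All groups carried Six2GFPcre, a transgene in which Six2 regulatory sequences drive GFP and Cre in nephron progenitors, so the controls carried it too and recombination is limited to cells of that lineage. Their genotypes were Smo c/c ; Six2GFPcre (labelled KO), Smo c/+ ; Six2GFPcre (labelled Het), Smo +/+ ; Six2GFPcre (labelled WT) and Rosa26 SmoM2/+ ; Smo +/+ ; Six2GFPcre (labelled SmoM2 Transgenic, here SmoM2). Smo transduces the Hedgehog signal, SmoM2 is an activated form of it, and the comparisons ask how the Smo dose changes expression in progenitors. The labels do not say whether the 2 libraries of a group came from separate embryos or whether embryos were pooled, so p-values measure only the spread between these libraries.

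Smo itself had 12.1 ± 1.39 CPM (counts scaled to library size; mean ± SD, n = 2) in the libraries labelled KO, 19.2 ± 6.73 in those labelled Het, 369 ± 8.48 in those labelled WT and 617 ± 17.1 in those labelled SmoM2. The Het level goes against its label, so each library is called by its label (KO-labelled and so on), and directions drawn from the Het-labelled libraries are those of libraries with little Smo RNA. The Hedgehog target Ptch1 had 53.0 ± 2.32, 76.2 ± 1.00, 161 ± 8.92 and 366 ± 16 CPM in the same order. The progenitor gene Six2 lay between 1132 and 2105 CPM in every library. Library totals ran from 4422305 to 10305398 counts and were lowest in the KO-labelled libraries. By Xist and Y-linked counts, both KO-labelled libraries were male and both Het-labelled libraries female, while the other groups held 1 of each. The summed level of 9 dissociation stress genes was 2716 to 2905 CPM in the WT-labelled, 3126 to 4451 in the SmoM2-labelled, 3778 to 5566 in the KO-labelled and 7065 to 7330 in the Het-labelled libraries. Long genes were lower in the KO-labelled libraries: over the 707 tested genes of at least 8000 bases the median log2 change from WT-labelled was -0.46, against 0.03 over all genes.

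Of the 37 genes, 27 had enough counts to be tested, 18 integrins and 9 laminins. The other 10 were Itga2, Itgad, Itgae, Itgam, Itgax, Itgb2, Itgb6, Itgb7, Lama3 and Lamb3, with 0 to 13 counts in any library. Most of these are leukocyte subunits (Itgad, Itgae, Itgam, Itgax, Itgb2, Itgb7), Itga2 is a collagen receptor and Itgb6 an epithelial subunit, while Lama3 and Lamb3 are chains of the laminin of stratified epithelia. The leukocyte marker Ptprc was at or under 3 counts in every library.

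Per gene length, the most abundant of these transcripts encode the receptor beta1 and the chains of the common laminins. In the WT-labelled libraries the authors' RPKM (reads per kilobase of gene, scaled to library size) averaged 81.5 ± 2.94 (SD, n = 2) for Itgb1, the beta subunit shared by most matrix-binding pairs. Lamc1, the gamma chain of most laminins, had 65.3 ± 4.70 RPKM, Lamb1 52.0 ± 6.39 and Lamb2 42.4 ± 0.28. The highest alpha subunit was Itga8, the nephronectin receptor, at 38.5 ± 0.464 RPKM, and the second beta subunit was Itgb5, a partner of integrin alphav, at 31.6 ± 3.68. Lama5 and Lama4, the most abundant laminin alpha chains, stood at 14.3 ± 0.44 and 13.6 ± 3.53 RPKM, closer to each other than the spread of Lama4. The genes that differed most between groups were low: in the same libraries Itga11 had 5.01 ± 0.23 RPKM, Itgb8 1.14 ± 0.306 and Itga4 0.352 ± 0.135.

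**Figure D1:**
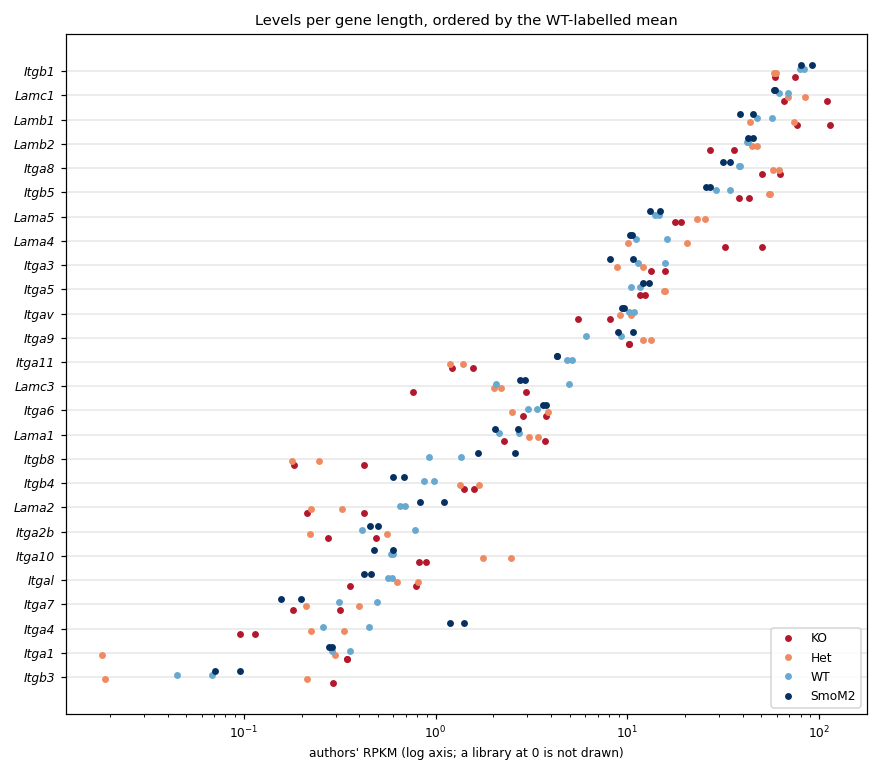
Authors' RPKM (log axis) of 26 of the 27 tested integrin and laminin genes, ordered by the mean of the WT-labelled libraries; each point is 1 library, coloured by its label, and a library at 0 is not drawn. Itgb1 and Lamc1 head the order, and Itga11, Itgb8, Lama2 and Itga4 show groups that lie apart.

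In the KO-labelled against the WT-labelled libraries, 10 of the 27 tested genes passed an adjusted p of 0.05 (edgeR quasi-likelihood test, adjusted over all 13459 tested genes), which is 37.0%, against 23.0% of all genes. Among them Lama4, Lamb1 and Itga8 were higher, and Itga11, Itgb8, Itga4, Lama2, Itgav and Lamb2 were lower. Over all genes 11.6% were called higher and 11.4% lower. The median log2 change was 0.04 over the 27 genes and 0.03 over all genes. The count was 5 without WT replicate 1, where 14.8% of all genes were called, and 5 with the stress score as a covariate, where 14.2% were called.

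In the Het-labelled against the WT-labelled libraries, 10 of 27 passed, 37.0% against 25.3% of all genes. Itga10, Itgb5, Lama5, Itga9, Itga8 and Itga5 were higher, and Itgb8, Itga11, Lama2 and Itgb1 were lower, while 13.1% of all genes were called higher and 12.2% lower. The median log2 change was 0.18 over the 27 genes and -0.02 over all genes. The stress genes were highest in these libraries, and with the stress score as a covariate 1 of the 27 genes passed, Itga11, against 3.53% of all genes. Without Het replicate 1 the count was 5, with 10.5% of all genes called.

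In the SmoM2-labelled against the WT-labelled libraries, 1 of 27 passed, Itga4, which was higher; 0.223% of all genes were called, 0.156% higher and 0.0669% lower. At an unadjusted p under 0.05 stood 4 of the 27 genes and 1036 of all genes. These first 3 comparisons share the WT-labelled libraries, so their values are not independent of one another. Between the KO-labelled and the Het-labelled libraries, 7 of 27 passed, 25.9% against 9.43% of all genes. Among them Lama4 was higher in the KO-labelled libraries (4.33% of all genes were called higher), and Itga10, Lamb2, Itgb5, Lama5 and Itga5 were lower (5.10% of all). This count rested on each of the 4 libraries: it was 3 without KO replicate 1, 1 without KO replicate 2, 0 without Het replicate 1 (edgeR; 8 genes at an unadjusted p under 0.05) and 3 without Het replicate 2. The share of all genes called fell as well in these fits, to 2.70%, 3.94%, 0.257% and 2.60%. With sex as a covariate 2 of the 27 genes passed, a share under the 8.30% of all genes. Both KO-labelled libraries were male and both Het-labelled ones female, so this fit took its sex term from the WT-labelled and SmoM2-labelled libraries alone. Sex and label cannot be told apart between the KO-labelled and Het-labelled libraries themselves. A test over all 4 groups called 16 of 27, 59.3% against 41.0% of all genes, made up of 10 of 18 integrins and 6 of 9 laminins.

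**Figure D2:**
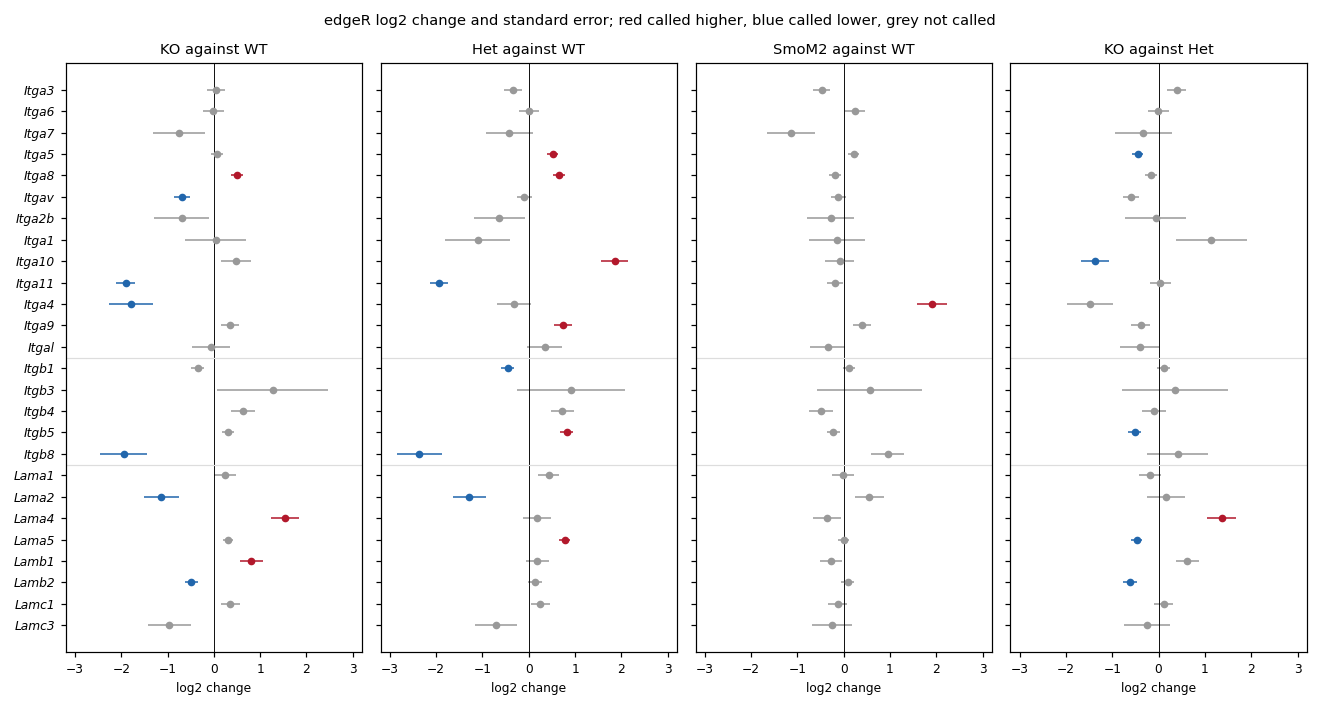
edgeR log2 change (points) and standard error (bars) of 26 of the 27 tested genes in the 4 comparisons; red and blue mark an adjusted p under 0.05. Itga11 and Itgb8 are blue in the KO against WT and Het against WT panels, and Itga4 is the only coloured gene of the SmoM2 against WT panel.

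Among the alpha subunits that bind RGD ligands, Itga8 was higher and Itgav lower in the KO-labelled libraries, and Itga8 and Itga5 were higher in the Het-labelled ones. Itga8 (chr2:12106632-12301985) (GRCm38.p6 of RefSeq) had 350 and 423 CPM in the KO-labelled, 444 and 418 in the Het-labelled, 268 and 281 in the WT-labelled and 251 and 231 in the SmoM2-labelled libraries. The KO-labelled and Het-labelled libraries lay above all 4 others, without overlap. The log2 change from WT-labelled was 0.49 (SE 0.13, adjusted p = 0.0186, edgeR) in KO-labelled and 0.65 (SE 0.13, adjusted p = 0.00463) in Het-labelled libraries, and -0.19 (adjusted p = 0.845) in SmoM2-labelled ones. With the stress score as a covariate the KO call (adjusted p = 0.067, edgeR) and the Het call (adjusted p = 0.19) were lost. Itga8 is also a marker of nephron progenitors, and 11 such markers were summed, Itga8 among them. Their sum was 5203 to 5530 CPM in KO-labelled, 6322 to 6659 in Het-labelled and 4333 to 4609 in WT-labelled libraries. In SmoM2-labelled libraries it was 4422 to 4465 CPM. Six2 alone gave 1132 to 2105 CPM of the sum. Relative to WT, 3 of the 11 markers passed as higher in KO-labelled and 6 in Het-labelled libraries, Itga8 included both times. Gdnf went the other way in KO-labelled libraries (log2 change -0.70, adjusted p = 0.0308, edgeR). The part of progenitor content in the Itga8 result was not tested. The KO call was lost without KO replicate 2, WT replicate 1 or WT replicate 2 (adjusted p = 0.0622 to 0.109, edgeR), and the Het call without Het replicate 1 (adjusted p = 0.0554).

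Npnt, which encodes nephronectin, the ligand of alpha8 beta1, lies outside the chosen symbols and is named after its values were seen. It had 23.5 and 39.6 CPM in the KO-labelled, 25.0 and 27.5 in the Het-labelled, 40.1 and 42.4 in the WT-labelled and 35.0 and 45.7 in the SmoM2-labelled libraries. The log2 change of this gene was -0.65 (SE 0.22, adjusted p = 0.0476) in Het-labelled and -0.38 (adjusted p = 0.229) in KO-labelled against WT-labelled libraries.

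Itgav, the alphav subunit that pairs with beta1, beta3, beta5, beta6 or beta8, had 45.8 and 66.6 CPM in the KO-labelled, 78.9 and 91.0 in the Het-labelled, 85.2 and 96.6 in the WT-labelled and 84.7 and 83.1 in the SmoM2-labelled libraries. Both KO-labelled libraries were below the other 6, and the Het-labelled range overlapped both remaining groups. Its log2 change in KO-labelled against WT-labelled libraries was -0.69 (SE 0.17, adjusted p = 0.0149), and against Het-labelled libraries -0.59 (adjusted p = 0.0518). With the trend over gene length removed the change from WT-labelled was -0.39 (adjusted p = 0.108), and the call was also lost without KO replicate 1 (adjusted p = 0.104) or WT replicate 2 (adjusted p = 0.0563).

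Itga5, which with beta1 forms the classic fibronectin receptor, had 65.5 and 60.7 CPM in the KO-labelled, 86.5 and 86.1 in the Het-labelled, 61.5 and 59.0 in the WT-labelled and 67.6 and 72.3 in the SmoM2-labelled libraries. The Het-labelled libraries stood above all others. The log2 change was 0.52 (SE 0.12, adjusted p = 0.00963) in Het-labelled against WT-labelled libraries, and -0.45 (SE 0.12, adjusted p = 0.0405) in KO-labelled against Het-labelled ones. Both calls were lost with the stress score as a covariate, and also with the GC and length trends removed. The KO against Het call was also lost with sex as a covariate, with the length trend removed and with library totals implied by RPKM. The first call was lost without Het replicate 1, Het replicate 2 or WT replicate 2 (adjusted p = 0.0708 to 0.0811), and the second when any 1 KO-labelled, Het-labelled or SmoM2-labelled library was left out (adjusted p = 0.0501 to 0.202). Itga2b, the alpha subunit of the platelet fibrinogen receptor, had at most 3.38 CPM and passed in no comparison.

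Among the collagen receptors, Itga11 was lower in the KO-labelled and in the Het-labelled libraries, and Itga10 was higher in the Het-labelled ones. Itga11 (chr9:62677855-62783979), a receptor for fibrillar collagen in mesenchymal cells, had 9.08 and 6.97 CPM in the KO-labelled, 7.22 and 8.49 in the Het-labelled, 30.1 and 30.2 in the WT-labelled and 26.6 and 26.5 in the SmoM2-labelled libraries. Both groups with little Smo RNA were low, and their ranges did not overlap those of the WT-labelled and SmoM2-labelled libraries. The log2 change from WT-labelled was -1.91 (SE 0.21, adjusted p = 0.000253, 3.75-fold lower) in KO-labelled and -1.94 (SE 0.20, adjusted p = 0.000134, 3.85-fold lower) in Het-labelled libraries. For the SmoM2-labelled libraries it was -0.18 (SE 0.18, adjusted p = 0.912). Itga11 passed in the KO and Het comparisons with WT under every alternative run.

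Itga10, another collagen receptor known from cartilage, was high in the Het-labelled libraries. It had 5.31 and 4.79 CPM in the KO-labelled, 10.96 and 15.5 in the Het-labelled, 3.54 and 3.70 in the WT-labelled and 3.78 and 3.005 in the SmoM2-labelled libraries. Against WT-labelled libraries its log2 change was 1.86 (SE 0.29, adjusted p = 0.0015, 3.62-fold higher) in Het-labelled and 0.48 (adjusted p = 0.315) in KO-labelled libraries. KO-labelled against Het-labelled libraries gave -1.38 (SE 0.31, adjusted p = 0.0219), a call lost when any 1 of the 4 libraries compared was left out (adjusted p = 0.0809 to 0.132). With the stress score as a covariate the Het change was 2.09 with an adjusted p of 0.113. The KO against Het call was lost with sex or the stress score as a covariate, and with the GC and length trends removed. Itga1, the third tested collagen receptor, had at most 2.52 CPM and passed in no comparison.

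Itga4 was the only gene of the 27 called in SmoM2-labelled libraries. It encodes alpha4, a receptor for VCAM1 and fibronectin (chr2:79255426-79333114). It had 1.33 and 1.09 CPM in the KO-labelled, 4.01 and 2.72 in the Het-labelled, 2.98 and 5.55 in the WT-labelled and 17.2 and 14.6 in the SmoM2-labelled libraries, from 6 and 5, 30 and 16, 32 and 51, and 168 and 126 counts. The SmoM2-labelled libraries were above all others, the KO-labelled ones below all others, and the Het-labelled and WT-labelled ones overlapped. The log2 change from WT-labelled was 1.90 (SE 0.32, adjusted p = 0.0427, 3.74-fold higher) in SmoM2-labelled and -1.80 (SE 0.48, adjusted p = 0.0204, 3.47-fold lower) in KO-labelled libraries. It was -0.31 (adjusted p = 0.566) in Het-labelled libraries. The alpha4 subunit is also known from leukocytes, and the summed level of 8 immune markers was 30.6 and 35.2 CPM in the SmoM2-labelled and 35.0 and 34.4 in the WT-labelled libraries. It was 31.0 and 14.8 CPM in the KO-labelled and 50.8 and 47.7 in the Het-labelled libraries. Cd68 alone gave 22.5 and 29.6 CPM of the SmoM2-labelled and 20.5 and 27.8 of the WT-labelled sums. In the KO-labelled sums it gave 10.8 and 13.9, and in the Het-labelled ones 44.8 and 41.3. Of the 4 immune markers tested, Cd68 was lower in KO-labelled (log2 change -0.96, adjusted p = 0.0133) and higher in Het-labelled libraries (0.84, adjusted p = 0.0124) against WT-labelled ones, while Ptprc was at or under 3 counts in all. The part of leukocyte RNA in the Itga4 result was not tested.

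Both Itga4 calls rested on few libraries. In SmoM2-labelled against WT-labelled libraries the adjusted p was 0.0768 to 0.203 without KO replicate 1, KO replicate 2, WT replicate 1, SmoM2 replicate 1 or SmoM2 replicate 2, with log2 changes of 1.51 to 2.02. The KO call was lost without KO replicate 1, KO replicate 2 or WT replicate 2 (adjusted p = 0.0915 to 0.0956). The gene model of Itga4 is 9832 bases long, in the length class that was lower in KO-labelled libraries, and with the length trend removed the KO change was -1.36 (adjusted p = 0.0744). With the stress score as a covariate it was -1.75 (adjusted p = 0.0565, edgeR). With the GC and length trends removed it was -1.25 (adjusted p = 0.0967, edgeR). The SmoM2 call was also lost with the stress score, and with the GC and length trends removed. Itga9, the other member of the alpha4 family and a tenascin receptor, had 85.0 and 84.3 CPM in the KO-labelled, 105 and 117 in the Het-labelled, 50.6 and 82.4 in the WT-labelled and 79.2 and 95.3 in the SmoM2-labelled libraries. The log2 change of this gene in Het-labelled libraries was 0.74 (SE 0.20, adjusted p = 0.0182), lost without Het replicate 1, Het replicate 2 or WT replicate 1 (adjusted p = 0.0635 to 0.116) and 0.12 with the stress score as a covariate (adjusted p = 0.886).

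The laminin-binding alpha subunits passed in no comparison. Itga3, the receptor of laminin in the glomerulus and collecting duct, had 82.1 and 95.6 CPM in the KO-labelled, 56.9 and 79.1 in the Het-labelled, 97.0 and 75.2 in the WT-labelled and 70.2 and 53.4 in the SmoM2-labelled libraries. The SmoM2-labelled range lay under the WT-labelled one and overlapped the Het-labelled one. Its log2 changes from WT-labelled were 0.04 (SE 0.19), -0.34 (SE 0.19) and -0.48 (SE 0.19) in KO-labelled, Het-labelled and SmoM2-labelled libraries. Itga6, an epithelial laminin receptor, lay between 18.6 and 28.7 CPM over all 8 libraries, and its log2 changes from WT-labelled were -0.01 (SE 0.23), 0.00 (SE 0.22) and 0.24 (SE 0.21). Itga7, known from muscle, had at most 2.42 CPM. Itgal, a leukocyte subunit, had 2.21 to 5.21 CPM, while its partner Itgb2 had at most 0.436 CPM.

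Of the beta subunits, Itgb8 was lower in the KO-labelled and in the Het-labelled libraries, Itgb5 was higher and Itgb1 lower in the Het-labelled libraries. Itgb8 (chr12:119162803-119238276) pairs with alphav to activate TGF-beta. It had 0.664 and 1.52 CPM in the KO-labelled, 0.936 and 0.679 in the Het-labelled, 4.94 and 3.59 in the WT-labelled and 10.02 and 6.47 in the SmoM2-labelled libraries, from 3 and 7, 7 and 4, 53 and 33, and 98 and 56 counts. All 4 KO-labelled and Het-labelled libraries lay under the WT-labelled ones, which lay under the SmoM2-labelled ones. The log2 change from WT-labelled was -1.95 (SE 0.51, adjusted p = 0.0186, 3.86-fold lower) in KO-labelled and -2.36 (SE 0.49, adjusted p = 0.0062, 5.14-fold lower) in Het-labelled libraries, while the SmoM2 value of 0.95 (SE 0.36) had an adjusted p of 0.518. With the stress score as a covariate the KO call (adjusted p = 0.0897, edgeR) and the Het call (adjusted p = 0.326) were lost. The KO call was lost without KO replicate 1 (adjusted p = 0.135) or WT replicate 1 (adjusted p = 0.0754).

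Itgb5, the vitronectin receptor subunit, had 167 and 146 CPM in the KO-labelled, 224 and 224 in the Het-labelled, 112 and 141 in the WT-labelled and 110 and 106 in the SmoM2-labelled libraries. The Het-labelled libraries were highest and the KO-labelled ones lay next, above the WT-labelled. Its log2 change was 0.82 (SE 0.14, adjusted p = 0.00187) in Het-labelled and 0.30 (SE 0.14, adjusted p = 0.13) in KO-labelled against WT-labelled libraries. The Het call was lost with the stress score as a covariate (adjusted p = 0.134, edgeR). KO-labelled against Het-labelled libraries gave -0.52 (SE 0.14, adjusted p = 0.0368), lost when any 1 of the 4 libraries compared was left out. With each library left out in turn the change was -0.62 to -0.43. This call was also lost with sex or the stress score as a covariate, and with the length trend, or the GC and length trends, removed.

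Itgb1 had 291 and 365 CPM in the KO-labelled, 307 and 301 in the Het-labelled, 393 and 442 in the WT-labelled and 424 and 481 in the SmoM2-labelled libraries, so the KO-labelled and Het-labelled libraries stood under the rest. Against WT-labelled libraries its log2 change was -0.46 (SE 0.14, adjusted p = 0.0327) in Het-labelled and -0.35 (SE 0.14, adjusted p = 0.092) in KO-labelled libraries. With the stress score as a covariate, or with the GC and length trends removed, the Het call was lost. The Het call was lost without Het replicate 1, Het replicate 2 or WT replicate 2 (adjusted p = 0.118 to 0.156). Itgb4, the partner of alpha6 in hemidesmosomes, had 10.2 and 11.3 CPM in the KO-labelled, 12.7 and 10.2 in the Het-labelled, 6.34 and 7.62 in the WT-labelled and 4.60 and 5.32 in the SmoM2-labelled libraries. It passed over the 4 groups (adjusted p = 0.01) but in none of the pairwise comparisons, where the lowest adjusted p was 0.055 for Het-labelled against WT-labelled. Itgb3 had at most 1.99 CPM and passed in no comparison.

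**Figure D3:**
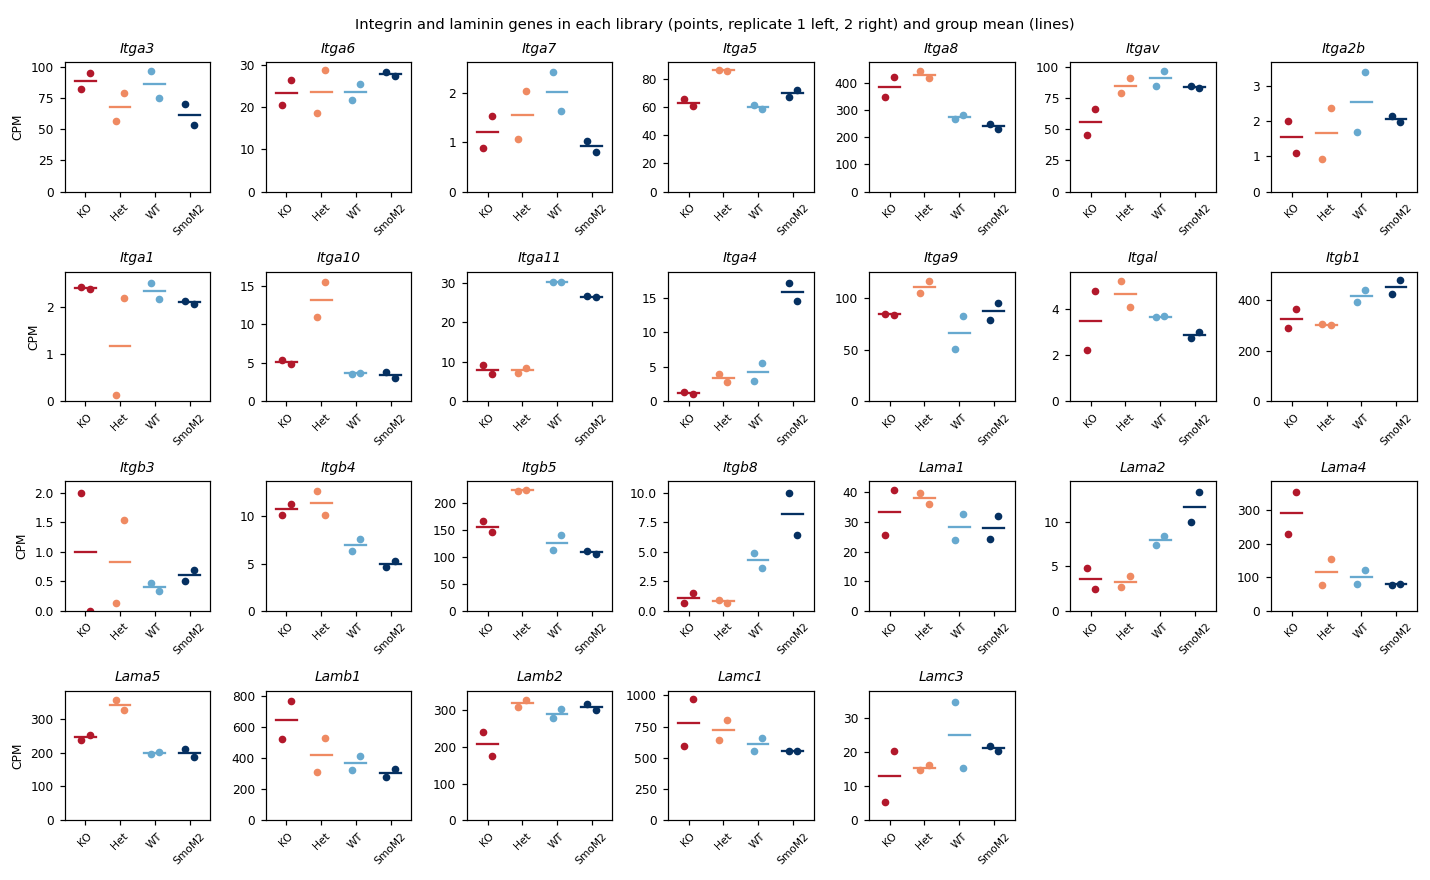
TMM-scaled CPM of 26 of the 27 tested genes (linear axes from 0); points are libraries, replicate 1 left and replicate 2 right, and lines are group means. Itga11 and Itgb8 are low in the KO-labelled and Het-labelled groups, Itga4 is high in the SmoM2-labelled group, and Lama4 and Lamb1 are high in the KO-labelled group.

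The promoters of Itga4, Itga11 and Itgb8, the 3 integrin genes that differed most between KO-labelled and WT-labelled libraries, are shown because Hedgehog signalling ends at GLI factors that bind DNA. Each is the stretch of 250 bases before the transcript start from RefSeq (GRCm38.p6), 5′ to 3′ on the gene's strand, in lower case with any searched motif in capitals. Itga4 holds CCACCCA, the right part of the GLI motif, 45 bases before the start, and no searched motif was found in the other two windows.
Itga4 (chr2:79255176-79255425, plus strand): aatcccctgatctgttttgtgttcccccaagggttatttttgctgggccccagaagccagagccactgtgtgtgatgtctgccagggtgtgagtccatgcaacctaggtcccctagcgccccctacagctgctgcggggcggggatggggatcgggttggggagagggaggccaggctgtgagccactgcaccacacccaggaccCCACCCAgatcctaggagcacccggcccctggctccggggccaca
Itga11 (chr9:62677605-62677854, plus strand): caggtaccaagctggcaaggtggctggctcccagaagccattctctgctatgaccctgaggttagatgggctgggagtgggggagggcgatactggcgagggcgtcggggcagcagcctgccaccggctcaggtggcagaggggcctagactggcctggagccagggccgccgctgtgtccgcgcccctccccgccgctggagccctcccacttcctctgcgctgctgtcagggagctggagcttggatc
Itgb8 (chr12:119238277-119238526, minus strand): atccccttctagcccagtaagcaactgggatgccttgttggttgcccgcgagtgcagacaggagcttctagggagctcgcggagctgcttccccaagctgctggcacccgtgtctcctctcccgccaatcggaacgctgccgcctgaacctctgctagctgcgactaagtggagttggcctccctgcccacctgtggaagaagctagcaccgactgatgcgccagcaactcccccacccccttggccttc

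The motifs were searched on both strands in 26 promoters of 23 of the 37 genes, and in all 32851 promoters of the RefSeq table. The full GLI motif GACCACCCA was in 0 of the 26 promoters and in 0.225% of all. Its right part CCACCCA, which overlaps it, was in 2 of 26 (Itga4 and Itga2) and in 8.11% of all, and its left part GACCACC was in 1 of 26 (Itgax) and in 2.34%. The EGR and WT1 motif GCGGGGGCG was in 1 of 26 (Lamb1) and in 2.57%, the TEAD motif GGAATG in 3 of 26 (Lamb3, Itga10 and Itgb1) and in 12.6%, and the AP-1 motif TGANTCA in 1 of 26 (Itgax) and in 6.75%. These matches describe the letters of the windows only.

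Among the laminin alpha chains, Lama4 was higher in the KO-labelled libraries, Lama5 was higher in the Het-labelled libraries, and Lama2 was lower in both. Lama4 (chr10:38965515-39110188), a chain of mesenchymal and vascular laminins, had 230 and 355 CPM in the KO-labelled, 75.3 and 154 in the Het-labelled, 79.3 and 123 in the WT-labelled and 77.6 and 80.4 in the SmoM2-labelled libraries. The KO-labelled libraries stood above the other 6, and the other groups overlapped. The log2 change was 1.54 (SE 0.30, adjusted p = 0.00548, 2.90-fold higher) in KO-labelled against WT-labelled libraries, and it passed under every alternative run. Against the Het-labelled libraries it was 1.36 (SE 0.31, adjusted p = 0.0222), lost without KO replicate 2 (adjusted p = 0.121) or Het replicate 1 (adjusted p = 0.147).

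Lama5, the main alpha chain of mature kidney basement membranes, had 238 and 253 CPM in the KO-labelled, 357 and 325 in the Het-labelled, 197 and 201 in the WT-labelled and 211 and 187 in the SmoM2-labelled libraries. The Het-labelled libraries were highest and the KO-labelled ones next, both above the WT-labelled and SmoM2-labelled ones. Relative to WT-labelled libraries the log2 change was 0.78 (SE 0.12, adjusted p = 0.0012) in Het-labelled and 0.30 (SE 0.12, adjusted p = 0.0818) in KO-labelled libraries. The Het call was lost with the stress score as a covariate (adjusted p = 0.0594, edgeR). KO-labelled against Het-labelled libraries gave -0.47 (SE 0.12, adjusted p = 0.0312), lost when any 1 of the 4 libraries compared was left out (adjusted p = 0.0713 to 0.219). Its gene model is 11388 bases long, genes of at least 8000 bases had a median log2 change of -0.28 in that comparison against 0.02 over all genes, and with the GC and length trends removed the change was 0.11 (adjusted p = 0.639). The KO against Het call was also lost with the length trend removed, and with sex or the stress score as a covariate.

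Lama2, the chain of muscle and stromal laminin, had 4.87 and 2.39 CPM in the KO-labelled, 2.67 and 3.91 in the Het-labelled, 7.46 and 8.50 in the WT-labelled and 10.02 and 13.4 in the SmoM2-labelled libraries. The KO-labelled and Het-labelled libraries overlapped and lay under the rest, and the SmoM2-labelled ones were highest. From WT-labelled libraries the log2 change was -1.13 (SE 0.37, adjusted p = 0.0463) in KO-labelled and -1.29 (SE 0.35, adjusted p = 0.0214) in Het-labelled libraries, and 0.55 (SE 0.31, adjusted p = 0.763) in SmoM2-labelled ones. This gene model is 9713 bases long, and with the length trend removed the KO change was -0.69 (adjusted p = 0.259). Both calls were lost with the stress score as a covariate, and also with the GC and length trends removed. The KO call was also lost without KO replicate 2, WT replicate 1 or WT replicate 2 (adjusted p = 0.0761 to 0.236) and by DESeq2 (adjusted p = 0.0554), and the Het call without Het replicate 1 (adjusted p = 0.143) or WT replicate 2 (adjusted p = 0.0662). Lama1, the alpha chain of the early embryonic laminin, had 23.96 to 40.9 CPM and passed in no comparison.

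Markers of stroma were read beside Itga11, Itga4 and Lama2, which stromal cells also express. The stroma marker Foxd1 had 12.8 and 3.70 CPM in the KO-labelled, 22.5 and 14.6 in the Het-labelled, 197 and 171 in the WT-labelled and 385 and 301 in the SmoM2-labelled libraries. The summed level of all 8 stroma markers was 185 to 695 CPM in KO-labelled, 274 to 436 in Het-labelled, 345 to 537 in WT-labelled and 562 to 688 in SmoM2-labelled libraries, and against WT-labelled libraries 1 of the 8 was higher and 1 lower in KO-labelled and likewise in Het-labelled libraries. The higher one was Meis1, with 86.4 and 98.4 CPM in the KO-labelled, 114 and 99.9 in the Het-labelled, 17.0 and 11.8 in the WT-labelled and 10.4 and 11.6 in the SmoM2-labelled libraries, so Foxd1 and Meis1 moved in opposite directions. The part of stromal RNA in these results was not tested, and in bulk libraries fewer cells of a type and less RNA per cell cannot be told apart.

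The beta chains moved apart in the KO-labelled libraries, with Lamb1 higher and Lamb2 lower. Lamb1, the beta chain of early laminins, had 521 and 768 CPM in the KO-labelled, 310 and 528 in the Het-labelled, 324 and 412 in the WT-labelled and 280 and 326 in the SmoM2-labelled libraries, and Het replicate 2 reached into the KO-labelled range. Its log2 change in KO-labelled against WT-labelled libraries was 0.81 (SE 0.24, adjusted p = 0.0336), but 0.50 without KO replicate 2 (adjusted p = 0.229) and 0.64 without WT replicate 1 (adjusted p = 0.147), and DESeq2 gave an adjusted p of 0.103. With the stress score as a covariate it was 0.46 (adjusted p = 0.25). Lamb2, which replaces Lamb1 in the mature glomerular basement membrane, had 240 and 176 CPM in the KO-labelled, 309 and 329 in the Het-labelled, 280 and 302 in the WT-labelled and 317 and 300 in the SmoM2-labelled libraries. The KO-labelled libraries were lowest. The log2 change was -0.48 (SE 0.15, adjusted p = 0.0347) against WT-labelled and -0.61 (SE 0.15, adjusted p = 0.0269) against Het-labelled libraries. The first was -0.28 without KO replicate 2 (adjusted p = 0.185), and it was also lost without WT replicate 1 (adjusted p = 0.0574) or WT replicate 2 (adjusted p = 0.0963). With the length trend removed it was -0.26 (adjusted p = 0.261), and the call was lost with sex (adjusted p = 0.0551) or the stress score (adjusted p = 0.151) as a covariate. The call against Het-labelled libraries was lost with sex or the stress score as a covariate. It was also lost with the length trend, or the GC and length trends, removed. The second was lost without KO replicate 2, Het replicate 1 or Het replicate 2 (adjusted p = 0.115 to 0.127).

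Of the gamma chains, Lamc1 had 591 and 969 CPM in the KO-labelled, 646 and 800 in the Het-labelled, 557 and 660 in the WT-labelled and 558 and 554 in the SmoM2-labelled libraries. KO replicate 1 lay within the WT-labelled range, and the log2 change of 0.36 (SE 0.20) in KO-labelled against WT-labelled libraries had an adjusted p of 0.222. Lamc3, a minor gamma chain, had 5.31 and 20.5 CPM in the KO-labelled, 14.7 and 16.1 in the Het-labelled, 34.8 and 15.4 in the WT-labelled and 21.7 and 20.5 in the SmoM2-labelled libraries and passed in no comparison.

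Markers of committed progenitors and the renal vesicle, the first epithelium of the nephron, were high in the same libraries as Lama4 and Lamb1. Their summed level over 8 markers was 1040 and 1272 CPM in the KO-labelled, 504 and 730 in the Het-labelled, 469 and 568 in the WT-labelled and 388 and 500 in the SmoM2-labelled libraries. Of the 8 markers, 6 were called higher in KO-labelled against WT-labelled and 5 in KO-labelled against Het-labelled libraries. In Het-labelled against WT-labelled libraries 2 were called higher, Pax8 and Fgf8, while Lama4 and Lamb1 were not called there. Lhx1, one of them, had 62.2 and 122 CPM in the KO-labelled libraries and 4.50 to 10.9 in the other 6. KO replicate 2 was above KO replicate 1 for the sum of this list and for Lama4, Lamb1 and Lamc1. Fgf8 of the list ran the other way, with 116 CPM in KO replicate 1 and 89.9 in KO replicate 2. KO replicate 2 was also the higher for Itga8, Itgb1, Itgav and the sum of the stress genes, and the lower for Itgb5 and Lamb2. The order of these libraries was thus not particular to the 3 laminin chains. The part of these cells in the laminin results was not tested.

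Lama4 is also a chain of endothelial laminin, and the summed level of 7 endothelial markers was 27.0 and 19.4 CPM in the KO-labelled libraries and 1.07 to 4.79 in the other 6. Cldn5 alone gave 22.1 and 17.0 of the KO-labelled values. The defining markers Pecam1, Cdh5 and Kdr were at or under 0.443, 1.53 and 0.839 CPM in every library, and Pecam1 was at or under 3 counts throughout.

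Expressed as shares of a class per gene length, the laminin alpha class was led by Lama4 in the KO-labelled libraries. Lama4 made up 61.2% and 68.6% of the summed alpha chain RPKM in the KO-labelled, 25.8% and 43.7% in the Het-labelled, 38.8% and 48.0% in the WT-labelled and 36.7% and 38.5% in the SmoM2-labelled libraries. Lama5 made up 33.6% and 26.0%, 64.9% and 49.0%, 51.1% and 41.7%, and 52.8% and 47.5% in the same order. The KO-labelled shares of Lama4 lay above all others and those of Lama5 below all others. With 2 libraries against 2, an exact permutation test cannot go below p = 0.333, so shares are given as values.

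Among the beta chains, Lamb1 made up 67.9% and 80.9% of the summed RPKM in the KO-labelled and 46.2% to 61.0% in the other 6 libraries. Itga8 made up 51.2% and 53.9% of the integrin alpha subunits in the KO-labelled, 53.9% and 48.5% in the Het-labelled, 41.5% and 41.8% in the WT-labelled and 39.4% and 37.7% in the SmoM2-labelled libraries. Itgb1 made up 56.4% and 64.9% of the beta subunits in the KO-labelled, 50.8% and 50.3% in the Het-labelled, 71.6% and 69.6% in the WT-labelled and 72.7% and 76.2% in the SmoM2-labelled libraries. Nearly all the rest was Itgb5, at 41.2% and 33.2%, 47.2% and 47.9%, 26.1% and 28.5%, and 24.2% and 21.5%. For these 3 shares the KO-labelled and Het-labelled libraries lay apart from the other 4.

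**Figure D4:**
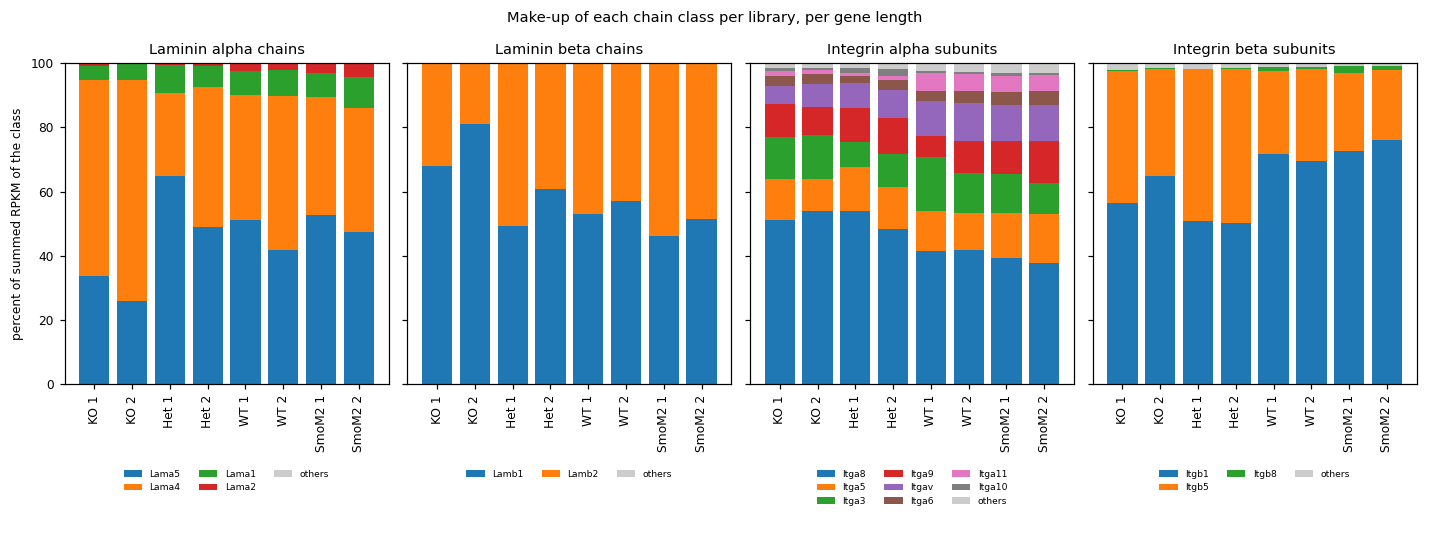
Share of each gene in the summed authors' RPKM of its class (percent, stacked bars from 0 to 100), 1 bar per library, for the laminin alpha and beta chains and the integrin alpha and beta subunits. Lama4 takes 61.2% and 68.6% of the alpha chains in the KO-labelled libraries and no more than 48.0% elsewhere, and Itgb5 takes 33.2% or more of the beta subunits in the KO-labelled and Het-labelled libraries and no more than 28.5% elsewhere.

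The matrix partners of integrins and laminins were read from a list of 39 genes, of which 36 were tested. The list holds ligands and basement membrane partners, among them cell-surface proteins such as Bcam. In KO-labelled against WT-labelled libraries 4 were higher and 8 lower (33.3%, against 23.0% of all genes). With the length trend removed 8 passed in all, and with the stress score as a covariate 9. The 4 higher genes were Cyr61 (log2 change 1.43), Mfge8 (0.74), an alphav ligand, Emilin1 (0.65) and Bcam (0.47), a receptor of laminin alpha5. The largest falls were in Tnc (-1.42, SE 0.14, adjusted p = 0.000141), which encodes the alpha9 ligand tenascin-C, Nid1 (-1.19), the nidogen that links laminin to type IV collagen, Frem1 (-1.19) and Ltbp1 (-1.01). Tnc had 249 and 319 CPM in the KO-labelled, 500 and 535 in the Het-labelled, 756 and 768 in the WT-labelled and 788 and 751 in the SmoM2-labelled libraries.

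In Het-labelled against WT-labelled libraries 10 of the 36 matrix partners were higher and 7 lower (47.2%, against 25.3% of all genes), and with the stress score as a covariate 3 passed. The leading genes were Cyr61 (1.32), Emilin1 (0.92), Mfge8 (0.87) and Thbs1 (0.77) among the higher and Ctgf (-1.64), Nid1 (-1.03), Frem1 (-0.81) and Col18a1 (-0.69) among the lower. In SmoM2-labelled against WT-labelled libraries edgeR called 0 of the 36, with 10 at an unadjusted p under 0.05 and 3 called by DESeq2. In KO-labelled against Het-labelled libraries Bcam was higher (0.72) and 5 were lower, among them Tnc (-0.87), Hspg2 (-0.63), Fbn2 (-0.60) and Col4a6 (-0.60), 16.7% in all against 9.43% of all genes, and 2 passed with the length trend removed.

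The cytoplasmic partners of integrins were read from a list of 41 genes, of which 36 were tested. The list also holds proteins linked to such partners, among them Filip1. In KO-labelled against WT-labelled libraries Nedd9, a docking protein, was higher (0.80) and 10 were lower (30.6% in all, against 23.0%), 5 in all with the length trend removed and 5 with the stress score. The lower genes were led by Kank1 (-1.81, SE 0.21, adjusted p = 0.000301), which binds talin, Filip1 (-1.77), Dab2 (-0.99) and Tns3 (-0.92), a tensin. In Het-labelled against WT-labelled libraries the actinins Actn1 (0.48) and Actn4 (0.41) were higher and 6 genes were lower (22.2% in all, against 25.3%), led by Filip1 (-2.78), Tns3 (-1.19), Tns1 (-1.13) and Kank1 (-1.02), and 2 passed with the stress score. Filip1 had few counts, 4 and 3 in the KO-labelled and 3 and 2 in the Het-labelled libraries, against 30 and 23 in the WT-labelled ones. The size of its 2 changes is therefore poorly measured. In SmoM2-labelled against WT-labelled libraries 0 of 36 were called by edgeR and 0 by DESeq2, with 5 at an unadjusted p under 0.05 by edgeR. In KO-labelled against Het-labelled libraries 4 were lower, Kank1 (-0.79), Kank2 (-0.61), Pxn (-0.55) and Git1 (-0.45), 11.1% against 9.43% of all genes.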

How the data were processed

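RNA from 8 libraries of sorted nephron progenitors was used, 2 in each of 4 groups taken from the labels. The authors deposited 1 table of 24539 genes with raw read counts per gene and RPKM values for each library and a gene length, per the file headers. STAR, featureCounts, Subread and mm10 appear in the submitters' processing notes; the annotation and the strand setting are not given in the sources used here, so reads of overlapping genes cannot be told apart.

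The counts were tested with edgeR 4.0.16 (R 4.3.3): genes filtered with filterByExpr, TMM scaling, a quasi-likelihood fit of the 4 group means over all 8 libraries, and Benjamini-Hochberg adjustment over the 13459 genes kept, with a threshold of 0.05. CPM are counts over TMM-scaled library sizes, and the standard error is the log2 change over the square root of F. Levels between genes and shares of a class use the deposited RPKM. The fit had 4 residual degrees of freedom and a biological coefficient of variation of 13.5%. Totals of 4422305 to 10305398 counts make 3 counts equal to 0.28 to 0.664 CPM. Replicates differed by 5.17 to 12.8 times sampling noise per gene, so no pair agreed within sampling noise; their origin is not given in the labels.

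On simulated counts for KO-labelled against WT-labelled libraries (13210 genes), 66 of 100 changes of 2-fold and 83 of 100 of 4-fold were recovered with 16 false calls. Alternatives were DESeq2 1.42.0, other scaling, no filter, offsets for a length trend, sex or stress score as a covariate, the replicate block, only the groups compared and each library left out; removal of GC and length trends and a fit without both Het-labelled libraries were chosen after seeing the data. Same-numbered libraries of different groups did not deviate together throughout, so the numbers were not used as pairs. The correlation was 0.39 between the WT-labelled and SmoM2-labelled groups, where replicate 1 was male and replicate 2 female in both. It was -0.06 to 0.10 for the other pairs of groups. With the replicate block 0.401% of all genes were called in SmoM2-labelled against WT-labelled libraries, against 0.223% without it. Every integrin and laminin may be named; of the partner lists, up to 4 genes in each direction with the largest called change and a mean log2 CPM of at least 1. The genes and the lists were chosen with earlier results of these data known. Promoters came from RefSeq (GRCm38.p6), which matched 23 of the 37 genes. Counts cover all tested genes, including 1 that is not reported here by name.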

Additional observations from a re-analysis of the deposited data

How the results depend on the processing

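The 28 calls of a gene in a pairwise comparison were refitted under up to 19 alternatives, giving 515 values: 400 kept their call and direction, 114 kept the direction but lost the call, and 1 reversed, Lama5 in KO-labelled against Het-labelled libraries, at 0.11 (log2) with the GC and length trends removed, which was chosen after seeing the data. Calls kept under every alternative run were 4, among them Itga11 in KO-labelled and in Het-labelled against WT-labelled libraries and Lama4 in KO-labelled against WT-labelled libraries. The stress score as a covariate ended 21 of the 28 calls, GC and length trends together 11 besides the reversal, the length trend alone 8, sex 7, fitting only the groups compared 3, DESeq2 and the RPKM-implied totals 2 each, and other size factors, no filter and the replicate block none. Without both Het-labelled libraries, chosen after seeing the data, all 11 calls not involving them were kept. The stress score was 6.41 and 6.64 in the WT-labelled, 6.79 and 7.04 in the KO-labelled and 7.41 and 7.55 in the Het-labelled libraries. The SmoM2-labelled libraries had 6.65 and 7.27, on either side of the KO-labelled range. The WT-labelled, KO-labelled and Het-labelled ranges did not overlap, so the score and the label cannot be fully told apart. The cause of these losses was not tested.

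The count of called genes was 10 in KO-labelled against WT-labelled libraries, 5 with the stress score and 5 to 10 when each library was left out, lowest without WT replicate 1. In Het-labelled against WT-labelled libraries it was 10, 1 with the stress score and 5 to 10 with each library left out, lowest without Het replicate 1. In SmoM2-labelled against WT-labelled libraries it was 1, and 0 by edgeR with the stress score, with GC and length trends removed, with only the groups compared, and without KO replicate 1, KO replicate 2, WT replicate 1, SmoM2 replicate 1 or SmoM2 replicate 2 (0 to 1 over the libraries left out; 2 to 4 genes at an unadjusted p under 0.05), and 1 by DESeq2. In KO-labelled against Het-labelled libraries it was 7, then 3 with the length trend removed (4.55% of all genes called), 2 with sex (8.30%), 2 with the stress score (4.97%), 2 with GC and length trends removed (2.47%), and 0 to 8 with each library left out. The count over the 4 groups stayed within 14 to 20.

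With the replicate block the counts were 10, 10, 1, 9 and 17 in the order KO against WT, Het against WT, SmoM2 against WT, KO against Het and over the 4 groups; all 28 calls were kept. No scaling moved the median change of all genes by over 0.1 (log2). The KO-labelled libraries were the shallowest, and Itga4 (6 and 5) and Itgb8 (3 and 7) had few counts there.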
